A study of Mus musculus with 9 samples.

Results

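Hepatocyte barcodes rich in nuclear RNA were chosen by their content of Malat1, a long non-coding RNA that stays in the nucleus. A barcode is the tag that Drop-seq, a droplet method, gives to the transcripts of 1 droplet, and each distinct transcript is counted by a unique molecular identifier (UMI). Of the 48000 barcodes in the 9 tables of the series, 44333 had at least 500 UMIs. Of those, 44306 also had at least 5 UMIs of Alb, the albumin gene. The Alb floor left out few barcodes, so by itself it sorted few of them by cell type. Malat1 made up at least 3% of the UMIs in 4449 of the 44306, called Malat1-high barcodes here. It made up at most 0.5% in 28311, called Malat1-low barcodes, and 11546 lay between the limits. Malat1, Alb and the UMI floor chose the barcodes, so they are given only as a description, and Malat1 was removed before any total was taken.

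Cells were isolated from the livers of 9 male wild-type C57BL/6 mice aged 8 weeks, 1 table per mouse. Mice 2, 5 and 8 had received the AAVrh.10Null vector, mice 3, 6 and 9 the AAVrh.10mCherry vector and mice 1, 4 and 7 PBS, all by the intravenous route. AAVrh.10 is an adeno-associated virus capsid, and mCherry is a red fluorescent reporter protein. The sources used here do not give the promoter, the dose or the time after injection.

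Malat1 sits at nuclear speckles, the bodies where splicing factors are stored, and Neat1 is the scaffold of paraspeckles. Messenger RNAs are spliced in the nucleus and mostly exported soon after, but some liver transcripts, among them Mlxipl in mouse liver, are known to be held there. Messages for ribosomal proteins and for secreted plasma proteins are long-lived and mostly cytoplasmic, while mitochondria make their own transcripts.

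The libraries held 1083091 (mouse 7) to 11220152 UMIs. The summed UMIs without Malat1 were 43137 (mouse 7) to 1218484 per mouse on the Malat1-high side and 35622 (mouse 7) to 9401780 on the Malat1-low side. Mouse 7 stood apart, with 129 barcodes at the floors against 3997 to 7167 in the other mice, and its sums rest on 46 Malat1-high and 45 Malat1-low barcodes. Mice 2, 7 and 8 also stood apart: 0.0972%, 4.83% and 0.278% of their barcodes ended in an undetermined base, against 25.4% to 27.5% in the other mice, and Malat1 had a median share of 0.660% to 1.87% in their eligible barcodes against 0.0565% to 0.299%. In all, 91 barcode sequences occurred in more than 1 table, of which 12 belonged to a Malat1-high barcode, and 0 were Malat1-high in more than 1 table. No doublets were removed.

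Malat1-high barcodes were present in all 9 livers, in shares that varied widely between mice of the same treatment. They made up 22.4%, 4.003% and 17.7% of eligible barcodes in the AAVrh.10Null mice 2, 5 and 8, 7.51%, 8.41% and 4.40% in the AAVrh.10mCherry mice 3, 6 and 9, and 5.14%, 1.60% and 35.7% in the PBS mice 1, 4 and 7. The exact 95% binomial interval was 21.4% to 23.3% in mouse 2 and 27.4% to 44.6% in mouse 7, and covers counting error only. The means were 14.7 ± 9.53% for AAVrh.10Null, 6.77 ± 2.11% for AAVrh.10mCherry and 14.1 ± 18.7% for PBS (SD, n = 3 each). The groups overlapped in all 3 comparisons. AAVrh.10Null minus PBS was 0.54 percentage points (exact permutation test, two-sided, p = 1), AAVrh.10mCherry minus PBS was -7.36 (p = 0.9) and AAVrh.10mCherry minus AAVrh.10Null was -7.90 (p = 0.4), each with an adjusted p of 1 over the 3 comparisons. With 3 mice against 3 the smallest p possible was 0.1. Mouse 7 set the sign of the AAVrh.10mCherry comparison with PBS: without it the difference was 3.40 percentage points and AAVrh.10Null minus PBS was 11.3 (exact permutation p = 0.4 for both, with 0.2 the smallest possible). The 3 mice with the highest shares were the 3 with few undetermined bases, and the part of that in the shares was not tested.

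**Figure D1:**
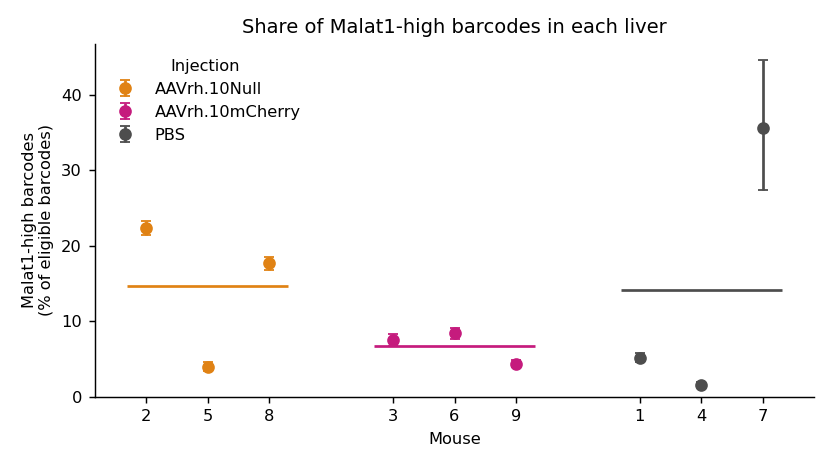
Malat1-high barcodes as a percentage of eligible barcodes (y axis) in each mouse, with AAVrh.10Null, AAVrh.10mCherry and PBS from left to right. Bars are exact 95% binomial intervals and the line is the group mean; the 3 highest mice are mouse 7 (35.7%), mouse 2 (22.4%) and mouse 8 (17.7%).

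The barcodes carried hepatocyte transcripts on both sides, at a lower level on the Malat1-high side. Summed over 14 hepatocyte markers without Alb, each present in every sum, the level was 63880, 83855 and 99984 CPM (UMIs per 1000000 UMIs other than Malat1; lowest, median and highest of 9 mice) in Malat1-high barcodes, against 104091, 118871 and 133204 CPM in Malat1-low barcodes, with no overlap. Alb itself took 2.35% to 5.404% of summed UMIs in Malat1-high and 3.61% to 4.75% in Malat1-low barcodes.

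Markers of other liver cells were low on both sides, with mouse 6 and mouse 7 as exceptions for 2 cell types. The 14 endothelial markers summed to 0, 134 and 660 CPM in Malat1-high barcodes, with the highest value in mouse 6, against 56.1, 94.1 and 190 CPM in Malat1-low barcodes. The 10 stellate and fibroblast markers summed to 75.4, 145 and 1646 CPM against 44.4, 108 and 646 CPM, with mouse 7 highest on the Malat1-high side and mouse 6 next at 904 CPM. Both ranges overlapped. Kupffer cell and macrophage markers summed to 0, 61.7 and 223 CPM in Malat1-high against 0, 83.4 and 280 CPM in Malat1-low barcodes, T and NK cell markers to 0, 5.77 and 52.9 CPM against 12.9, 34.4 and 193 CPM, and B and plasma cell markers to 0, 6.57 and 36.1 CPM against 0, 11.1 and 42.6 CPM. Cholangiocyte markers summed to 11.6, 17.6 and 60.7 CPM against 0, 16.7 and 26.1 CPM.

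Of 7070 genes with enough UMIs to test, 2645 (37.4%) were higher and 2437 (34.5%) lower in Malat1-high barcodes at an adjusted p under 0.05 (edgeR quasi-likelihood test with the mouse as block), 71.9% in either direction. A change of at least 2-fold was passed by 1561 genes (22.1%) upwards and 528 (7.47%) downwards. Each list count below is to be read against the shares of 37.4% higher and 34.5% lower over all genes. The direction was the same in all 9 mice for 1227 higher and 995 lower genes. The barcodes were chosen on a transcript of the same droplets, so these p-values measure how repeatable over 9 mice the difference that goes with Malat1 is. The rises reached further than the falls: 466 genes rose by a log2 change of at least 2 and 117 by at least 3, while 4 genes, all haemoglobins, fell by at least 2. Each log2 change is relative to a median of 0.03 over all genes with the trimmed-mean (TMM) scaling used here. With DESeq2-type size factors that median was 0.29 and with library totals 0.46, and the calls were then 3278 higher and 1715 lower (65.7% of calls higher) and 3728 higher and 1252 lower (74.9%), against 52.0% in the values above. The count of 2-fold falls rested on the scaling and on single mice, being 36 with DESeq2-type size factors, 117 without mouse 2, 954 without mouse 4 and 87 without mouse 8.

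The genes that give these barcodes their label all rose, but they were picked with earlier results of these data known and lend it no independent weight. Neat1 (chr19:5824708-5845478, minus strand, GENCODE M21 on mm10) had 418, 775 and 1433 CPM in Malat1-high barcodes, against 16.0, 41.2 and 140 CPM in Malat1-low barcodes (lowest, median and highest of 9 mice, here and below after TMM scaling). Its log2 change was 3.96 ± 0.25 (SE; adjusted p = 1.74e-14). Mlxipl (chr5:135089890-135138382, plus strand), which encodes the glucose-responsive transcription factor ChREBP, had 659, 1294 and 1504 CPM against 20.98, 57.6 and 159 CPM, a log2 change of 4.27 ± 0.14 (adjusted p = 9.43e-21). Neither gene's ranges overlapped. The lowest Malat1-high value of Mlxipl came from mouse 7, and the highest Malat1-low value of both came from mouse 8.

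Pnisr (chr4:21847583-21876475, plus strand), a serine/arginine-rich splicing-related protein, had 250, 674 and 871 CPM in Malat1-high barcodes, against 26.4, 42.0 and 97.1 CPM in Malat1-low barcodes, a log2 change of 3.91 ± 0.13 (adjusted p = 1.66e-20). Ccnl2 (chr4:155812489-155824543, plus strand), the cyclin L2 that pairs with kinases acting on splicing factors, had 114, 564 and 673 CPM against 20.98, 40.1 and 64.1 CPM, a log2 change of 3.76 ± 0.11 (adjusted p = 1.5e-21). For both genes every mouse was higher on the Malat1-high side, no ranges overlapped, and mouse 7 had the lowest Malat1-high value. Kcnq1ot1, a nuclear antisense RNA of the imprinted Kcnq1 locus, was the only other long RNA of its list of 15 with enough UMIs, at 159, 269 and 751 CPM against 0, 16.8 and 51.5 CPM (log2 change 4.08 ± 0.19). The sources used here do not say whether the counting used strand, so its reads cannot be told apart from those of Kcnq1.

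**Figure D2:**
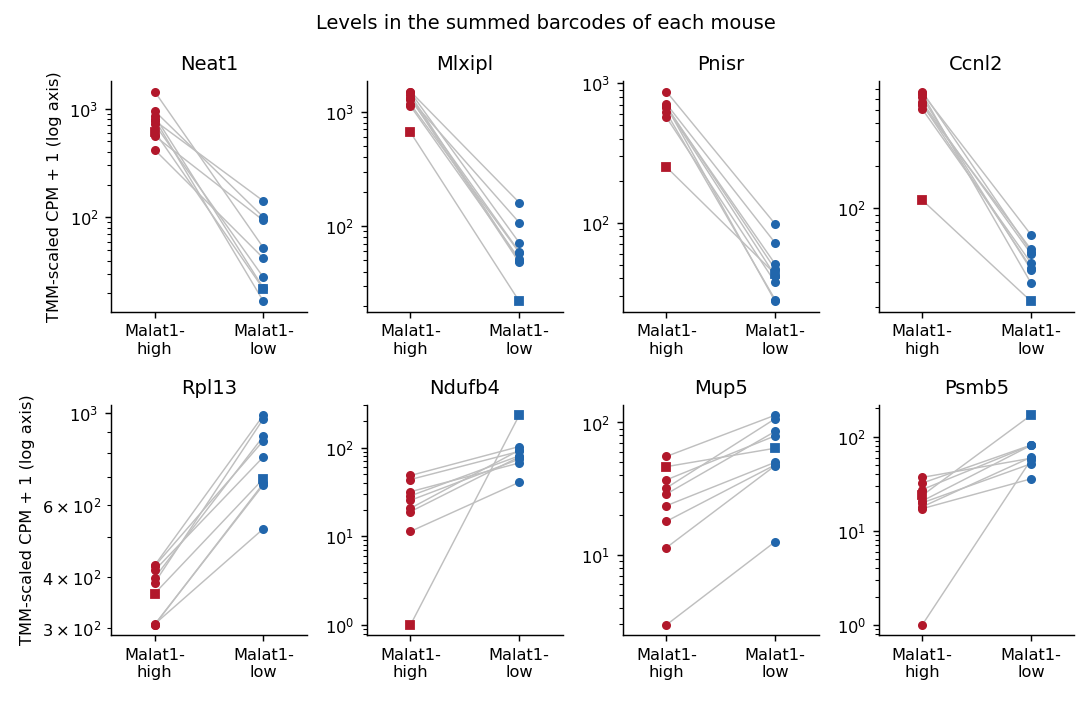
Levels of 8 genes in each mouse (TMM-scaled CPM plus 1, log axis), with Malat1-high sums in red at left and Malat1-low sums in blue at right, lines joining the sums of a mouse and squares marking mouse 7. Neat1, Mlxipl, Pnisr and Ccnl2 go down from left to right in every mouse, while Ndufb4, Mup5 and Psmb5 go up in every mouse, with log2 changes of -1.42, -1.43 and -1.57.

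The levels moved by degrees with the Malat1 share and not in a step at the limits. Along 8 classes from 0 to 10% or more Malat1, the median over mice of Neat1, here without TMM scaling, was 26.2, 39.9, 165, 448, 560, 816, 1069 and 1251 CPM. Mlxipl took the values 43.7, 53.9, 218, 552, 1013, 1368, 1781 and 2102 CPM, and the sum of the SR and SR-related splicing genes climbed from 1626 CPM in the lowest class to 18028 CPM in the highest. The sum of the ribosomal protein genes was 27902, 27979, 26311, 21897, 17864, 16565, 16756 and 15254 CPM in the same classes. These are descriptions: the classes share mice, and the highest holds 2 mice with enough barcodes. Just inside the limit, 783 barcodes with 3% to 3.5% Malat1 had 677 CPM of Neat1, 1294 of Mlxipl, 544 of Pnisr and 513 of Ccnl2. Just outside it, 935 barcodes with 2.5% to 3% had 554, 1048, 635 and 554 CPM of the same genes. The medians inside are over 9 mice and those outside over 8, as mouse 7 had only 9 barcodes outside. These sets of mice differ, and whether the genes differ across the limit was not tested.

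**Figure D3:**
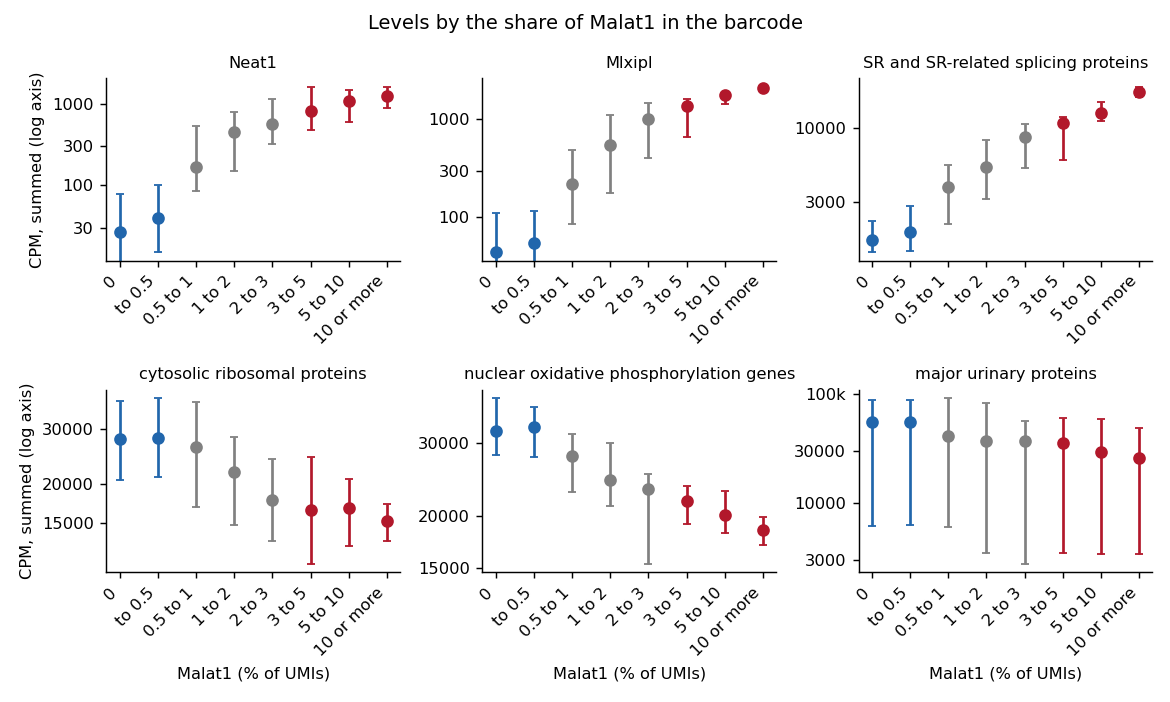
Levels by class of Malat1 share (x axis, % of UMIs) as CPM on a log axis, for Neat1, Mlxipl and 4 lists summed over their genes. Points are medians over mice with at least 10 barcodes in the class, bars run from the lowest to the highest mouse (to 0 where they meet the lower edge), and blue, grey and red mark Malat1-low, between and Malat1-high classes; Neat1, Mlxipl and splicing genes climb while the other lists decline.

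Other liver messages described as nuclear-retained rose along with Mlxipl. Nlrp6, an innate immune sensor, had 182, 630 and 871 CPM in Malat1-high barcodes, against 0, 69.2 and 88.9 CPM in Malat1-low barcodes (log2 change 3.26 ± 0.12), and Gcgr, the glucagon receptor, had 386, 691 and 843 CPM against 20.98, 121 and 221 CPM (2.35 ± 0.10). Neither gene's ranges overlapped.

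All 13 kinases and cyclins that act on splicing factors rose, with a median log2 change of 2.42 against 0.03 over all genes. Ccnl1 had 204, 300 and 386 CPM in Malat1-high barcodes, against 24.3, 35.2 and 52.6 CPM in Malat1-low barcodes (log2 change 3.15 ± 0.11). Clk1, a kinase of SR proteins that is known for a retained intron, had 162, 182 and 276 CPM against 0, 23.6 and 41.3 CPM (2.90 ± 0.13), and Prpf4b had 305, 365 and 518 CPM against 26.9, 42.4 and 77.6 CPM (2.98 ± 0.10). None of the 3 had ranges that overlapped.

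Of 33 genes for SR proteins, the serine/arginine-rich splicing factors, and related proteins, 32 could be tested; 31 rose, and the median log2 change was 1.96. Luc7l2, which works with the U1 particle at the start of introns, had 386, 1071 and 1212 CPM in Malat1-high barcodes, against 42.0, 77.2 and 151 CPM in Malat1-low barcodes (log2 change 3.501 ± 0.12). Pnn, a speckle protein, had 136, 489 and 651 CPM against 20.98, 45.4 and 74.0 CPM (3.28 ± 0.10). Within each mouse the median over the list, on log2 of CPM plus 1, lay between 1.69 and 2.03, the closest range among the rising lists. U2af1, which binds the end of introns, was the exception with a fall of 0.49 ± 0.17, a call that did not hold with DESeq2-type size factors or library totals.

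RNA-binding proteins of the hnRNP and DEAD-box families did not move together. Of 20, 12 rose, 5 fell and 3 did not pass, with a median log2 change of 0.73. Ddx17 rose by 2.58 and Hnrnph1 by 2.13. Hnrnpab, at 25.9, 68.2 and 86.7 CPM in Malat1-high, against 20.98, 113 and 163 CPM in Malat1-low barcodes, fell by 0.92. With DESeq2-type size factors 14 rose and 1 fell.

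Genes for chromatin and transcription regulators rose in 27 of 27 tested, out of 28 listed, with a median log2 change of 1.54. Atrx, a chromatin remodeller, had 286, 368 and 704 CPM in Malat1-high barcodes, against 64.2, 98.6 and 157 CPM in Malat1-low barcodes (2.07 ± 0.09), without overlap. Chd3, a remodeller of the NuRD complex, had 198, 274 and 528 CPM against 32.9, 61.3 and 126 CPM (2.48 ± 0.11). Tet2, which oxidises methylated cytosine, rose by 3.54 ± 0.17, at 0, 72.9 and 119 CPM against 0, 6.29 and 10.8 CPM; it was at 0 on both sides in mouse 7.

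Of 27 tested hepatocyte transcription factors and nuclear receptors, out of 30, 18 rose and 0 fell, with a median log2 change of 0.49. Without mouse 7, 18 rose and 3 fell, and without mitochondrial and haemoglobin genes 14 rose and 4 fell. Nr1i3, the drug-sensing nuclear receptor CAR, had 249, 422 and 861 CPM in Malat1-high barcodes, against 42.0, 56.9 and 161 CPM in Malat1-low barcodes (2.68 ± 0.12), without overlap. Zbtb20, a repressor of fetal liver genes, rose by 1.32 ± 0.13 and Ppara, the sensor of fatty acids, by 0.96 ± 0.10, with ranges that overlapped. The hepatocyte factors Cebpa (-0.14), Foxa3 (-0.25) and Nfix (-0.35) did not pass the test. Among clock genes 9 of 10 tested, out of 17, rose (median 1.17), led by Tef with a log2 change of 2.40, and Nr1d1 rose by 1.64.

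Of 18 tested genes for cell surface receptors, out of 23, 15 rose with a median log2 change of 0.78. The asialoglycoprotein receptor subunits Asgr1 (-0.69 ± 0.09) and Asgr2 (-0.49) fell, and with DESeq2-type size factors 1 receptor gene fell and 16 rose; Ghr, the growth hormone receptor, at 0.08 did not pass.

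Immediate early genes, which cells switch on within minutes of a stimulus such as tissue dissociation, rose in 13 of 13 tested, out of 18, with a median log2 change of 2.25. Jun had 700, 2028 and 3552 CPM in Malat1-high barcodes, against 40.0, 271 and 609 CPM in Malat1-low barcodes (3.02 ± 0.16), without overlap. Btg2, an antiproliferative gene, had 71.8, 408 and 592 CPM against 12.8, 58.6 and 70.4 CPM (2.81 ± 0.12), also without overlap. Atf3, a stress-response factor, rose by 3.43 ± 0.19 and Fos by 2.31 ± 0.12, each with overlapping ranges. Of 9 tested p53 and nuclear stress targets, out of 14, 5 rose and Ccng1 fell (-0.52; 0 fell with DESeq2-type size factors), with Plk3 at 3.19 and Mdm2, the p53 ubiquitin ligase, at 1.82.

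Heat shock and chaperonin genes moved in both directions. The inducible Hsp70 genes Hspa1b (2.53 ± 0.22) and Hspa1a (2.03) and their partner Dnajb1 (2.08) rose, whereas the chaperonin genes Cct5 (-0.96), Cct8 (-0.79) and Hspd1 (-0.78 ± 0.09) fell. Hspd1, of the mitochondrial chaperonin, had 260, 369 and 592 CPM in Malat1-high barcodes, against 378, 720 and 834 CPM in Malat1-low barcodes. Over the 20 genes 6 rose and 11 fell with a median log2 change of -0.28, which was 0.14 with library totals, when 8 rose and 6 fell. The 2 Hsp70 genes are near-identical copies whose reads can be split between them.

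Genes with only a provisional name took many of the largest rises. Gm27463, a short feature annotated as a microRNA, had 22.1, 153 and 233 CPM in Malat1-high barcodes, against 0, 2.54 and 10.4 CPM in Malat1-low barcodes (log2 change 5.32 ± 0.22). AC149090.1 had 382, 437 and 557 CPM against 14.9, 18.5 and 41.0 CPM (4.49 ± 0.14), and Gm26917 rose by 4.64 ± 0.21. Gm37376 rose by 4.65, but it lies inside the Malat1 gene on the other strand, so its count is not independent of the choice of barcodes. Tbx3os1, antisense to Tbx3, rose by 5.17 and Tbx3 by 1.71, which cannot be told apart without strand. The pseudogenes Mug-ps1 (4.62) and Pisd-ps1 (4.49) and Erdr1 (4.80) have near-identical copies, so the source of their reads is uncertain. The largest rises also held the protein-coding genes Fam193b (98.3, 136 and 221 CPM against 0, 4.85 and 13.3 CPM; 4.79 ± 0.20) and Sned1 (4.46). Among the host genes of small nucleolar RNAs 8 of 10 tested, out of 15, rose, led by Snhg20 (4.03), while Snhg6 fell by 0.76.

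Ribosomal protein messages fell as a block. Of 87 genes 80 could be tested and all 80 fell, with log2 changes from -1.29 (Rps25) to -0.61 (Rpl10a) and a median of -1.11 against 0.03 over all genes. Their summed level without TMM scaling was 12472, 15399 and 22129 CPM in Malat1-high barcodes, against 20892, 27964 and 37402 CPM in Malat1-low barcodes, ranges that overlapped narrowly. Rps25 had 109, 144 and 211 CPM against 257, 357 and 551 CPM (adjusted p = 2.33e-13), without overlap. With library totals 79 fell, and the median was -0.67. Within single mice the median over the list lay between -1.28 and -0.88.

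Nuclear-encoded subunits of oxidative phosphorylation fell almost as uniformly, with 74 of 78 tested genes, out of 82, lower and a median log2 change of -1.07. Ndufb4, a subunit of complex I, had 0, 24.4 and 47.5 CPM in Malat1-high barcodes, against 39.6, 79.7 and 231 CPM in Malat1-low barcodes (-1.42 ± 0.16), with both extremes in mouse 7. Atp5e, of the ATP synthase, had 159, 284 and 458 CPM against 437, 683 and 998 CPM (-1.16 ± 0.09). The exceptions Atp5sl (1.93 ± 0.14; 22.7, 71.0 and 103 CPM against 15.6, 20.4 and 23.7 CPM) and Atp5s (0.64) rose; both carry the name of the ATP synthase, but Atp5sl is an assembly factor of complex I.

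Mitochondrially encoded transcripts fell too, except in mouse 7. All 10 tested, out of 15, fell with a median log2 change of -0.83, and mt-Nd5 had 916, 2079 and 4067 CPM in Malat1-high barcodes, against 1711, 3063 and 7641 CPM in Malat1-low barcodes (-0.89 ± 0.16). The mitochondrial share of summed UMIs was 8.24 ± 5.96% in Malat1-high and 10.1 ± 4.82% in Malat1-low barcodes (SD, n = 9). The difference of -1.88 percentage points did not pass an exact sign-flip permutation test (two-sided, p = 0.324), although 8 of 9 mice were lower. Mouse 7 went the other way, with 21.2% in Malat1-high against 9.51% in Malat1-low barcodes, and without it the difference was -3.59 (exact p = 0.00781, 8 of 8 mice lower).

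Messages for secreted liver proteins mostly fell. Of 21 major urinary protein genes, which encode abundant pheromone carriers, 19 were tested and 19 fell, with a median log2 change of -1.09. Mup17 had 102, 1478 and 6626 CPM in Malat1-high barcodes, against 240, 3413 and 14018 CPM in Malat1-low barcodes (-1.20 ± 0.10), so that the spread between mice was far wider than the change while all 9 mice were lower. Mup genes are near-identical, and reads can be split between them. Of 12 tested apolipoprotein genes, out of 13, 10 fell, Apoc1 with 4947, 6237 and 8406 CPM against 9903, 13766 and 18183 CPM (-1.06 ± 0.11). Apob, a very long message, did not pass (-0.02 ± 0.13), and neither did Apoa5 (0.05). Serpin A genes, also near-identical in part, fell in 10 of 10 tested, out of 13, with a median of -0.92. With DESeq2-type size factors 7 fell (median -0.66), and with library totals 7 fell (median -0.51).

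Complement genes went both ways, with 8 of 25 tested, out of 28, rising and 13 falling. Over all genes 37.4% rose and 34.5% fell. Hc, complement component 5, had 545, 1151 and 1293 CPM in Malat1-high barcodes, against 147, 550 and 827 CPM in Malat1-low barcodes (1.02 ± 0.10), while Mbl2, a mannose-binding lectin, had 280, 431 and 741 CPM against 546, 868 and 1659 CPM (-0.97 ± 0.09). The median of -0.32 was 0.12 with library totals, with 11 then rising and 8 falling. Of 23 tested coagulation genes, out of 24, 15 fell and 2 rose, F11 (1.37) and F5 (0.43), with a median of -0.48. With DESeq2-type size factors 12 fell and 8 rose, and with library totals 6 fell and 8 rose (median -0.07).

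Metabolic genes were mixed, and over all genes 37.4% rose and 34.5% fell. Of 39 tested cytochrome P450 genes, out of 73, 25 fell and 8 rose, with a median log2 change of -0.45 (-0.01 with library totals, when 13 fell and 12 rose). Cyp2e1 fell by 0.73 and Cyp3a11 by 0.83, while Cyp3a25, of the same subfamily, had 750, 1738 and 3033 CPM in Malat1-high barcodes, against 168, 576 and 792 CPM in Malat1-low barcodes (1.60 ± 0.10). Cyp2d34 (4.26) and Cyp2j9 (4.09) rose most. Cyp7a1, the rate-limiting enzyme of bile acid synthesis, rose by 1.75 ± 0.19. Of 10 tested glucuronosyltransferase genes, out of 19, 6 fell and 1 rose, Ugt1a6a by 4.57. With library totals 1 fell and 4 rose.

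Pericentral genes went both ways, as did all genes (37.4% higher and 34.5% lower). Of 15 tested, out of 18, 5 rose and 7 fell, with a median log2 change of -0.22 that was 0.05 with DESeq2-type size factors and 0.22 with library totals. Of 17 tested periportal and urea cycle genes other than Alb, out of 18, 10 fell and 1 rose with a median of -0.60, but 7 fell and 7 rose with library totals (median -0.17). Pck1, the gluconeogenic enzyme, was the gene that rose, with 1260, 1687 and 2059 CPM in Malat1-high barcodes, against 403, 651 and 1392 CPM in Malat1-low barcodes (1.08 ± 0.12). Ass1, of the urea cycle, fell by 1.096 ± 0.10, with 677, 781 and 1613 CPM against 1251, 1994 and 2875 CPM. Both genes' ranges overlapped.

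Lipid genes moved in both directions, as did all genes (37.4% higher and 34.5% lower). Fatty acid synthesis genes and glucose-sensing targets rose in 9 and fell in 4 of 16 tested, out of 17, and held Txnip (2.17), Acaca (1.92) and Fasn (0.996) against Scd1 (-0.93). Of 20 cholesterol synthesis genes and SREBP2 targets, 6 rose and 7 fell (8 and 2 with DESeq2-type size factors), near the shares of 37.4% and 34.5% over all genes, and Cyp51 fell by 0.70. Fatty acid oxidation genes fell in 15 and rose in 3 of 21 tested, out of 22, but fell in 9 and rose in 6 with library totals (median -0.52, then -0.09). Among those that fell was Fabp1, a cytosolic fatty acid carrier (2353, 8686 and 10329 CPM in Malat1-high, against 5525, 17068 and 21859 CPM in Malat1-low barcodes; -1.097 ± 0.11). Of 11 tested interferon genes, out of 25, 3 rose and 2 fell, against 37.4% and 34.5% over all genes. Their median log2 change was 0.13, so the list as a whole moved little. Stat2, a transducer of interferon signals, rose by 3.26 ± 0.12, while Ddx58 (0.38) and Irf7 (0.24) did not pass.

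**Figure D4:**
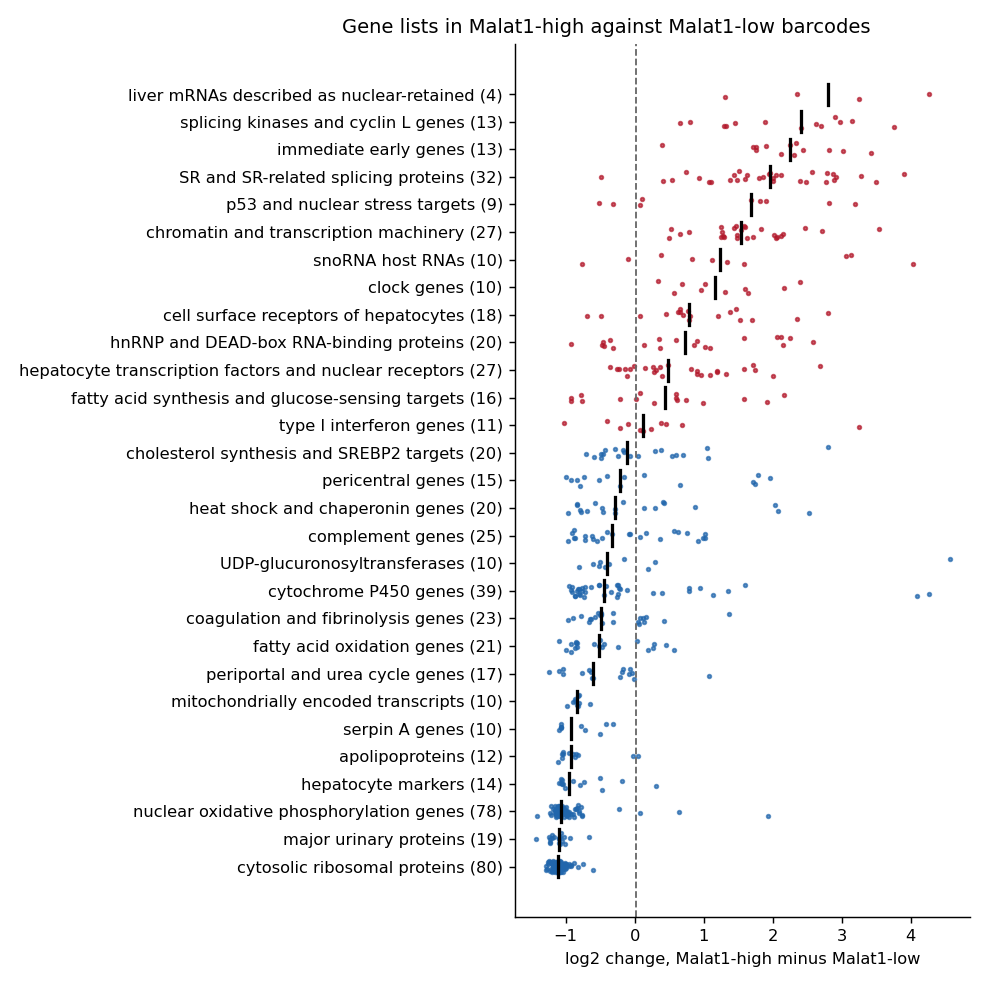
Log2 change, Malat1-high minus Malat1-low, of each tested gene (points) in 29 lists, ordered by list median (black bar), with the number tested in brackets and the median of all 7070 genes dashed. Lists with a median above that line are red and the others blue; splicing lists sit near 2 and ribosomal, urinary protein and oxidative phosphorylation lists near -1.

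Of the 14 hepatocyte markers other than Alb, 12 fell, Cps1 did not pass the test (log2 change -0.19) and Hnf4a, a master regulator of hepatocyte identity, rose by 0.31. Markers of other cells were mostly too sparse to test. Of 14 endothelial markers 6 were tested and 2 rose, against 37.4% of all genes. They were Stab2 (1.41) and Kdr (0.59, a call lost in 11 of 22 alternatives and of the other sign in 1), with a list median of 0.37 that was -0.07 without mice 6 and 7. With DESeq2-type size factors 3 of the 6 rose (median 0.64), and with library totals all 6 rose (median 0.81). Of 3 tested stellate markers Ecm1 (0.92) rose, and 2 of 3 tested macrophage markers, Lyz2 (-1.27) and C1qb (-0.89), fell. Stellate markers that rose numbered 2 with DESeq2-type size factors, 3 with library totals and 0 without mice 6 and 7. With library totals 1 macrophage marker fell. The cholangiocyte marker Spp1 (-0.34) did not pass, and no T, NK or B cell marker could be tested. Of the red cell genes 5 of 5 tested fell, the haemoglobins Hba-a1, Hba-a2, Hbb-bs and Hbb-bt by log2 changes of -6.38 to -4.47 and Alas2, of haem synthesis, by 1.06. Hbb-bs had 0, 12.7 and 170 CPM in Malat1-high barcodes, against 1.16, 391 and 4710 CPM in Malat1-low barcodes (-4.91 ± 0.23, lower in all 9 mice). In mouse 8 this rested on 0 against 1.16 CPM.

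Among the largest falls was Psmb5, a proteasome subunit, which had 0, 19.7 and 35.9 CPM in Malat1-high barcodes, against 34.6, 59.3 and 168 CPM in Malat1-low barcodes (-1.57 ± 0.17). Polr2k, a shared RNA polymerase subunit (-1.49), and Mrps28, of the mitochondrial ribosome (-1.39), fell as well, each in all 9 mice. Of 100 protein-coding genes with a mean level over both sides of at least 1000 CPM, 8 rose and 86 fell, with a median log2 change of -0.84.

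The change ran with the annotated length of the message. Among 6750 protein-coding genes of the nuclear genome matched to GENCODE M21, the 1449 that rose at least 2-fold had a median spliced length of 4.84 kb, 13 exons and a genomic span of 40.3 kb, and the 490 that fell at least 2-fold had 1.24 kb, 4 exons and 5.99 kb, against 3.27 kb, 8 exons and 24.4 kb over all. A retained-intron transcript was annotated for 75.3% of those that rose and 46.9% of those that fell, against 64.1% of all. Across 10 bins of spliced length with 675 genes each, the median log2 change was -0.92 in the shortest, -0.02 in the fifth and 1.20 in the longest. Spearman's rho across genes was 0.58 with spliced length, 0.42 with exon number, 0.38 with span and -0.26 with the mean level; genes are not independent and share libraries, so no p is given. Of 119 long non-coding genes 67 rose and 22 fell (median 0.89), whereas of 36 processed pseudogenes, intron-less copies of mature messages, 4 rose and 30 fell (median -1.08).

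**Figure D5:**
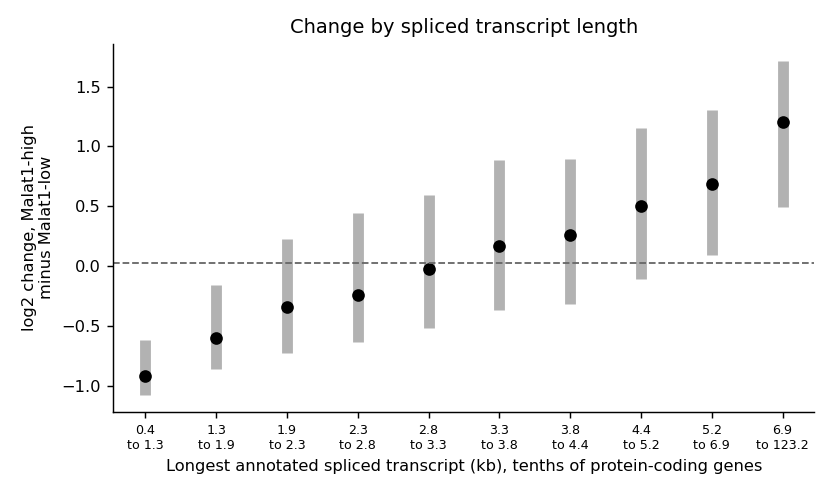
Log2 change, Malat1-high minus Malat1-low, for 6750 protein-coding genes in 10 equal bins of their longest annotated spliced transcript (x axis, kb). Points are medians, grey bars run from the 25th to the 75th percentile and the dashed line is the median of all tested genes; the median climbs from -0.92 in the shortest to 1.20 in the longest bin.

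Malat1-high barcodes also held more kinds of transcript at the same depth. With each barcode thinned to 500 UMIs the median number of genes was 254.5 (mouse 7) to 355 in Malat1-high and 256 to 297 in Malat1-low barcodes, higher on the Malat1-high side in 8 of 9 mice. Without thinning, the medians were 404.5 to 1098 genes and 754 to 2200 UMIs in Malat1-high barcodes, against 339 to 821 genes and 596 to 1972 UMIs in Malat1-low barcodes.

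The difference between Malat1-high and Malat1-low barcodes itself differed between treatments for 1 gene in each comparison, though the count moved with the processing. Of 9388 genes tested, 1 (0.0107%) passed in each of the 3 comparisons, which share mice, while 437, 291 and 434 genes had an unadjusted p under 0.05. Lifr, the receptor of leukaemia inhibitory factor, had 737, 268 and 1014 CPM in Malat1-high against 201, 72.9 and 184 CPM in Malat1-low barcodes of the AAVrh.10mCherry mice 3, 6 and 9. In the PBS mice 1, 4 and 7 it had 296, 206 and 182 CPM against 200, 139 and 83.9 CPM. The log2 change was larger with AAVrh.10mCherry than with PBS by 1.54 ± 0.26 (edgeR interaction test, adjusted p = 0.00398); it lost the call in 7 of 26 alternatives.

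Against PBS, the AAVrh.10Null mice 2, 5 and 8 differed in Gm26917, which had 601, 269 and 273 CPM in Malat1-high against 51.9, 8.41 and 23.1 CPM in Malat1-low barcodes. In the PBS mice 1, 4 and 7 it had 154, 368 and 159 CPM against 2.97, 4.36 and 0 CPM. The change was smaller with AAVrh.10Null than with PBS, by -2.11 ± 0.39 (adjusted p = 0.0206), a call lost in 11 of 26 alternatives. Between the vectors Gm23935, a short feature annotated as a microRNA, differed by -2.32 ± 0.43 (AAVrh.10mCherry minus AAVrh.10Null, adjusted p = 0.0192), lost in 9 of 26. It had 22.6, 69.0 and 44.5 CPM in Malat1-high against 14.4, 51.8 and 13.8 CPM in Malat1-low barcodes of the AAVrh.10mCherry mice, and 87.5, 82.8 and 57.0 CPM against 3.93, 18.8 and 4.05 CPM in the AAVrh.10Null mice. The AAVrh.10Null mice 2 and 8 are among those with few undetermined bases, and the part of that in these values was not tested. Some other genes passed only under alternative settings. The change of Neat1 was -1.81 ± 0.43 (AAVrh.10Null minus PBS, adjusted p = 0.296) and passed in 12 of 26. H2-Aa, of antigen presentation, and Dnajb1 (AAVrh.10mCherry minus AAVrh.10Null) passed in 9 of 23 and 8 of 26, and Cish, an inhibitor of cytokine signals (AAVrh.10mCherry minus PBS), in 8 of 26.

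Within the Malat1-high barcodes few genes differed between treatments. Of 5858 genes tested, 1 (0.0171%) passed for AAVrh.10Null minus PBS, 1 (0.0171%) for AAVrh.10mCherry minus PBS and 4 (0.0683%) for AAVrh.10mCherry minus AAVrh.10Null, of which 3 (0.0512%) were higher and 1 (0.0171%) lower, and 196, 253 and 319 had an unadjusted p under 0.05. The mCherry transcript had 6259, 4235 and 1760 CPM in Malat1-high against 9498, 8145 and 2029 CPM in Malat1-low barcodes of the AAVrh.10mCherry mice 3, 6 and 9. Between the sides it fell, with a log2 change of -0.43 ± 0.18 (adjusted p = 0.0323 in the edgeR test over all mice), a call lost in 11 of 26 alternatives. Without TMM scaling mouse 9 was the other way round, at 2087 CPM in Malat1-high against 1832 CPM in Malat1-low barcodes. Within Malat1-high barcodes mCherry passed against PBS (edgeR, adjusted p = 0.000242) and against AAVrh.10Null (adjusted p = 3.69e-06), each lost in 1 of 25 alternatives. The injected vector carries mCherry, so this outcome was fixed by the design. The counts of genes that passed in both comparisons include mCherry. In AAVrh.10Null mice, without TMM scaling, it had 3 UMIs (17.3 CPM) in Malat1-high against 75 UMIs (24.3 CPM) in Malat1-low barcodes of mouse 5, 0 against 1 UMI in mouse 8 and 0 on both sides in mouse 2. The library of mouse 1, labelled PBS, had 49.5 CPM in Malat1-high against 22.8 CPM in Malat1-low barcodes.

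The antibody segment Igkv3-12 had 98.5, 265 and 235 CPM in Malat1-high against 142, 261 and 251 CPM in Malat1-low barcodes of the AAVrh.10Null mice 2, 5 and 8. It was at 0 UMIs on both sides in the AAVrh.10mCherry mice 3 and 9 and in all PBS mice, and at 2 UMIs in Malat1-high and 9 UMIs in Malat1-low barcodes of the AAVrh.10mCherry mouse 6. It passed for AAVrh.10Null minus PBS (edgeR, adjusted p = 0.000989, lost in 3 of 25 alternatives) and for AAVrh.10mCherry minus AAVrh.10Null (adjusted p = 2.64e-05). No fold is given against groups at or near 0. Like the label genes, Igkv3-12 was named with earlier results of these data known, so these p-values lend no independent weight. Between the vectors Hnrnpa1, an RNA-binding protein, had 33.7, 39.3 and 49.8 CPM in the Malat1-high barcodes of AAVrh.10mCherry mice, against 8.30, 11.7 and 3.86 CPM in those of AAVrh.10Null mice (log2 difference 2.56 ± 0.47, adjusted p = 0.0382), a call lost in 17 of 23 alternatives. Gm45836 had 196, 341 and 97.2 CPM against 6.64, 52.6 and 42.5 CPM (2.89 ± 0.53, adjusted p = 0.0382), lost in 13 of 25. Neither gene's groups overlapped.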

How the data were processed

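Drop-seq counts of 9 livers were used, 1 table per mouse, grouped by the treatment in the labels. Each deposited table gives the raw UMI count of every gene in every barcode; the authors' use of Seurat and of the mouse genome mm10 is taken from the submitters' processing notes. Aligner, counter, annotation, strand use and the authors' barcode threshold are not given in the sources used here. Barcodes and gene lists were chosen with earlier results of these data known.

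UMIs were summed per mouse and side, with at least 20 barcodes a side, after Malat1 was removed, in Python 3.11.15 with numpy 2.4.6, pandas 2.3.3 and scipy 1.17.1. Sums were compared in R 4.3.3 with edgeR 4.0.16 (glmQLFit and glmQLFTest), with TMM scaling, filterByExpr and Benjamini-Hochberg adjustment over all genes tested, called at an adjusted p under 0.05. The mouse was the block, since both sums come from 1 animal; the interaction of side and treatment used the same sums, and treatments within Malat1-high sums were compared without a block. DESeq2 1.42.0 and limma 3.58.1 (voom) were alternatives. The biological coefficient of variation was 0.131 for Malat1-high against Malat1-low and 0.268 within Malat1-high. Shares and the mitochondrial share were compared over mice by exact permutation tests. List medians within a mouse used a pseudocount of 1 CPM. A level of 0 allows up to 3 UMIs. Figures used matplotlib 3.10.9, and the code was tested on simulated data.

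Genes named in the text are the 12 largest changes per direction with a mean of at least 20 CPM on the higher side and 1 direction in every mouse, the 4 label genes, up to 4 of each list with the smallest p, mCherry and Igkv3-12, and in the other contrasts the 3 with the smallest p per direction; further list members are named as exceptions, after their values were seen. Gene positions, lengths and biotypes are from GENCODE M21, where 6946 of 7070 tested genes had 1 position. Some list members that the rule names are counted in their lists but not reported here.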

Additional observations from a re-analysis of the deposited data

Results flagged for a closer look

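Of 41 measures compared between the 9 mice, 18 had a mouse far from the rest by Dixon's criterion, which about 1 group in 20 passes by chance; 16 of these were mouse 7, whose sums rest on 46 Malat1-high and 45 Malat1-low barcodes. Its mitochondrial share was higher by 11.7 percentage points in Malat1-high than in Malat1-low barcodes, against -5.57 to -0.80 in the other mice. Its genes per barcode at 500 UMIs were lower by 38.5 (difference -38.5), against 44 to 61 more in the others.

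The other values of mouse 7 are list medians of log2 change within the mouse, after TMM scaling. Its TMM factors were 1.02 for Malat1-high and 1.34 for Malat1-low barcodes. In every other mouse the Malat1-high factor was the larger, such as 1.13 against 0.82 in mouse 1. A larger factor lowers the scaled CPM, so scaling raised the log2 changes of mouse 7 and lowered those of the others. How much of each gap below comes from this was not tested. Above the other mice were liver mRNAs described as nuclear-retained (4.52, others 2.36 to 3.34), receptors (2.71, others 0.54 to 1.17), mitochondrially encoded transcripts (1.61, others -1.21 to -0.67), complement (1.61, others -0.70 to -0.28), coagulation (1.28, others -0.76 to -0.35) and cytochrome P450 genes (0.998, others -0.62 to -0.31). Also above them were periportal genes (0.998, others -0.85 to -0.34), glucuronosyltransferases (0.74, others -0.74 to -0.20), apolipoproteins (0.28, others -1.22 to -0.89), fatty acid oxidation genes (0.27, others -0.87 to -0.33) and hepatocyte markers (-0.11, others -1.17 to -0.86). Oxidative phosphorylation genes (-0.42, others -1.29 to -0.90) and serpin A genes (-0.46, others -1.17 to -0.85) were less low in it. Splicing kinases and cyclins were lower in it than elsewhere, at 0.38 against 1.71 to 2.70. Without TMM scaling the summed hepatocyte markers of mouse 7 were 99984 CPM in Malat1-high against 133204 CPM in Malat1-low barcodes. The same sums were 88169 against 126323 CPM in mouse 1 and 83855 against 118871 CPM in mouse 5.

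Mouse 6 stood out for endothelial markers (1.72, others -0.30 to 0.69) and mouse 8 for haemoglobin genes, with a median of 0 against -5.37 to -2.91. In mouse 8, 4 of the 5 red cell genes had 0 UMIs in Malat1-high and 3 in Malat1-low barcodes. Its median of 0 therefore comes from absent counts and does not show that these genes were unchanged.

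By the test of the difference itself, the log2 change between Malat1-high and Malat1-low barcodes differed between treatments for Gm23935 (-2.32, AAVrh.10mCherry minus AAVrh.10Null), Lifr (1.54, AAVrh.10mCherry minus PBS) and Gm26917 (-2.11, AAVrh.10Null minus PBS).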

How the results depend on the processing

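Neat1 (3.49 to 4.40), Mlxipl (3.79 to 4.71), Pnisr (3.44 to 4.36) and Ccnl2 (3.29 to 4.21) kept their direction and call in all 26 alternatives, and 147 of 191 results for named genes, these 4 included, did so in each alternative that gave a value; 25 of 4807 gene values changed sign, and the cause was not tested.

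The count of genes 2-fold lower, 528 in the values above, was 36 with DESeq2-type size factors, 13 with library totals, 2503 with no filter, 49 with DESeq2, 943 without mitochondrial and haemoglobin genes, 169 with barcodes thinned to 500 UMIs, 999 at up to 20% mitochondrial UMIs, 987 at 5% Malat1, 799 at 2%, 260 at 20 Alb UMIs, 972 without barcodes with other cells' markers, 858 without undetermined bases and 1408 without mice 2, 7 and 8. Genes lower in any size were 1252 with library totals, 4194 with no filter, 1598 with DESeq2 and 1565 thinned, and genes 2-fold higher were 2726 with no filter. Leaving out single mice gave 2343 to 2900 higher, 1739 to 2814 lower, 1369 to 1777 2-fold higher and 87 to 954 2-fold lower genes. Without the replicate block the counts were 2438 higher and 2108 lower, and 0, 0 and 0 genes in the interactions, taken as AAVrh.10Null against PBS, then AAVrh.10mCherry against PBS, then AAVrh.10mCherry against AAVrh.10Null. No paired analysis was possible because mouse numbers are not shared between treatments, for the comparisons of treatments within Malat1-high barcodes.

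In the same order, those interactions gave 3, 3 and 3 genes with no filter, 0, 0 and 0 with DESeq2, 3, 0 and 2 at 5% Malat1, 0, 0 and 0 at 2%, 2, 3 and 3 at up to 20% mitochondrial UMIs and 11, 3 and 13 without mice 6 and 7, an alternative chosen after seeing the data. AAVrh.10Null minus PBS gave 0 with voom and at 1000 UMIs, 2 thinned and without other cells' markers, and 3 without undetermined bases. AAVrh.10mCherry minus PBS gave 6 without mice 2, 7 and 8, and AAVrh.10mCherry minus AAVrh.10Null gave 0 with voom and at 20 Alb UMIs, 4 thinned and 3 at 1000 UMIs and without undetermined bases. Leaving out single mice gave 0 to 6, 0 to 8 and 0 to 6. Within Malat1-high barcodes the counts were 9, 10 and 60 with no filter; AAVrh.10Null minus PBS gave 0 thinned and at 5% Malat1, AAVrh.10mCherry minus PBS gave 2 at 20 Alb UMIs and without mice 2, 7 and 8, and AAVrh.10mCherry minus AAVrh.10Null gave 2 with DESeq2, voom, 20% mitochondrial UMIs, 5% and 2% Malat1, 1000 UMIs and without undetermined bases. Leaving out single mice gave 0 to 1, 1 to 2 and 2 to 10.

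The share of Malat1-high barcodes turned sign for AAVrh.10Null minus PBS at 20 Alb UMIs (-3.53), thinned (-0.515) and without other cells' markers (-0.165). It did so for AAVrh.10mCherry minus PBS at 5% Malat1 (0.376), without mice 2, 7 and 8 (3.40) and without mice 6 and 7 (2.58). For AAVrh.10mCherry minus AAVrh.10Null it turned without mice 2, 7 and 8 (2.77), where mouse 5 was the only AAVrh.10Null mouse. Leaving out single mice gave -5.72 to 11.3, -13.6 to 3.40 and -13.2 to -4.06. The mitochondrial difference passed at 5% Malat1 (-4.46), 1000 UMIs (-2.22), without mice 2, 7 and 8 (-3.36) and without mice 6 and 7 (-3.30), and ran from -3.59 to -1.42 with single mice left out.

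Log2 changes of other cells' markers turned sign as follows: with library totals Clec4f (0.0879), Ifi27 (0.0396, an interferon gene) and Spp1 (0.0892), with no filter Colec11 (-0.0745), Fcgr2b (-0.15) and Ptprb (-0.0265), and at 5% Malat1 Colec11 (-0.0837), Dcn (-0.20), Fcgr2b (-0.75), Kdr (-0.23) and Ptprb (-0.37). So did Ptprb at 20 Alb UMIs (-0.25), Dcn (-1.14) and Ecm1 (-0.0032) without other cells' markers, Colec11 (-0.18) and Fcgr2b (-0.13) without mouse 6 (up to 0.62 and 0.55 without other single mice), and Colec11 (-0.36), Dcn (-0.15), Fcgr2b (-0.20) and Ptprb (-0.0251) without mice 6 and 7. In the interactions Tmsb4x (-1.39) and H2-Aa (-0.45) turned at 5% Malat1, and Igkv3-12 (-2.59) and mCherry (-0.32) when thinned. Within Malat1-high barcodes mCherry turned for AAVrh.10Null minus PBS without mouse 1 (2.72, and down to -7.12 without other single mice). That contrast rests on 3 UMIs in mouse 5 and 30 UMIs in mouse 1, so its size carries no weight.

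Mouse 7 and mouse 4, with 46 and 77 Malat1-high barcodes, limit the depth. UMIs were too few to test any T, NK or B cell marker.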
